A study of Mus musculus with 2 samples.

Results

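The fatty acid elongases and desaturases of mouse liver were compared between fasting and feeding. The set held 10 genes: the elongases Elovl1, Elovl2, Elovl3, Elovl5, Elovl6 and Elovl7, the front-end desaturases Fads1 and Fads2, and the stearoyl-CoA desaturases Scd1 and Scd2. They were chosen by name, as the probes whose transcript belongs to one of these genes, and all 10 were measured among 16342 genes measured in all. Livers of male mice were collected from a fasting group and a feeding group, and total RNA was pooled over 3 mice per group, labelled with Cy3 and hybridised to 1 Agilent mouse array per group. The fast is given as 16 h in one label and as an overnight fast of 14 to 16 h in another. The feeding group is described both as mice with free access to food and as mice that ate after the fast, and neither the time since the meal nor the time of day is given in the sources used here. The study's methods give male C57BL/6J mice of 8 to 12 weeks for its animal work, and the labels name no genotype or drug that differed between these groups.

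Fatty acids leave the fatty acid synthase as palmitate, and membrane-bound enzymes of the endoplasmic reticulum then lengthen and desaturate them. An elongase of the ELOVL family condenses an activated fatty acid with malonyl-CoA and so selects which chains are lengthened, while the later steps of each cycle are shared. Stearoyl-CoA desaturases place the first double bond in saturated chains, and the front-end desaturases FADS1 and FADS2 work with ELOVL2 and ELOVL5 to turn dietary linoleic and linolenic acid into the long polyunsaturated acids of membranes. In liver this pathway is known for its link to feeding, insulin, the transcription factor SREBP-1c and the nuclear receptors LXR and PPARalpha.

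The values are processed signals, which are background-subtracted intensities of a probe on each array. Changes are differences of log2 signals after quantile normalization, feeding minus fasting, and a positive value means a higher signal upon feeding. There was 1 array per group, so no difference has a replicate check and no test was possible. The spread between probes that were spotted repeatedly on each array gives a technical error only, with a median SD of a log2 difference of 0.08 over 121 such probes of high signal and 0.09 over 111 of intermediate signal, when the genes measured are split by signal into 3 equal classes. The scanner software's own error model gave 0.20 to 0.21 for the log2 change of each member. Genes were called at 2-fold, the threshold in the study's methods. The fasting array had 63.1% of its spots well above background and the feeding array 72.3%, and no spot was saturated. All 11 probes of the 10 members were well above background on both arrays.

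Of the 10 members, 1 was at least 2-fold higher upon feeding and 1 was at least 2-fold lower. Elovl6 was 3.96-fold higher and Elovl3 was 11.1-fold lower, and the other 8 lay within 2-fold. Among all genes measured, 3.29% were at least 2-fold higher and 4.62% at least 2-fold lower, which were 537 and 755 genes. Scaling the arrays by their medians turned these counts into 717 higher and 648 lower, with the same numbers of members. At a threshold of 1.5-fold, 1 member was higher and 6 were lower, against 10.5% and 10.6% of all genes. These 6 were Elovl3, Scd1, Elovl2, Elovl7, Fads1 and Elovl5. This count depended on the processing: under either of the other scalings 4 were lower, without Fads1 and Elovl5, and 2 were higher, with Elovl1 beside Elovl6, and with normexp 3 were lower (Elovl3, Scd1 and Elovl2) and 2 higher. The shares of all genes at 1.5-fold were not counted under those other settings. The median change of the members was -0.62, beside a median of 0 over all genes, with 3 members above zero and 7 below. In pooled liver tissue, fewer cells of a type and less RNA per cell cannot be told apart.

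**Figure D1:**
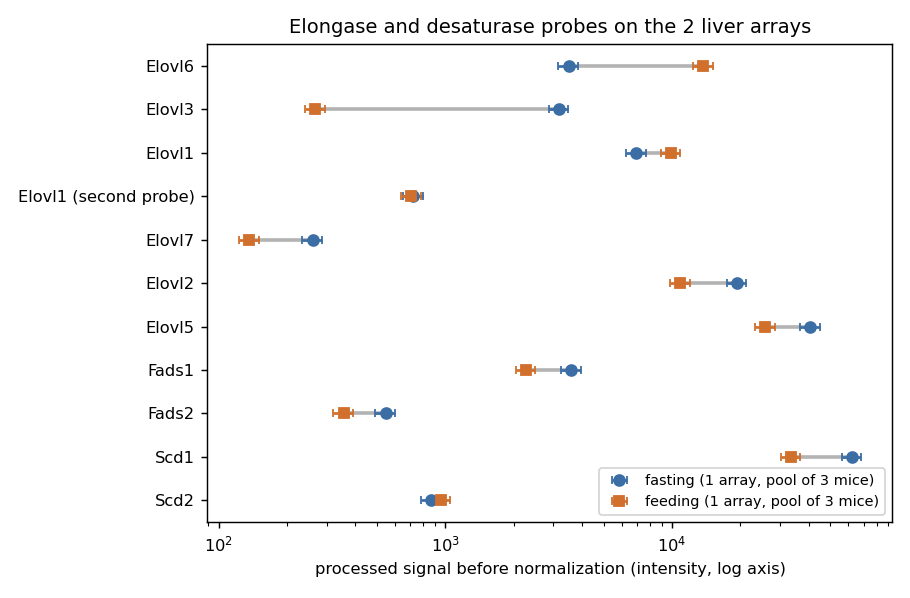
Processed signal of each member probe before normalization (log axis) on the fasting array (blue circles) and the feeding array (orange squares), each 1 array of a pool of 3 mice; bars are the scanner's error estimate of the signal, not a spread between mice. Elovl6 went from 3505 to 13721 and Elovl3 from 3173 to 267, while the signals of the other probes lay nearer to each other.

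Elovl6 lengthens palmitate, the direct product of fatty acid synthesis, and also palmitoleate, to chains of stearate length. Its probe (A_51_P463440, transcript NM_130450) read 3505 on the fasting array and 13721 on the feeding array. The feeding signal was the higher, by 1.98 on the log2 scale, and only 0.490% of all genes had a larger increase. Elovl6 stood at rank 81 among the increases. Its change lay between 1.94 and 2.20 under all 8 alternatives of scaling, background correction, probe choice and filtering.

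Because Elovl6 was the only member past 2-fold in the upward direction, its promoter is shown. The 250 bases before the start site were taken from the RefSeq promoter table of the build GRCm38.p6, which held 8 promoters of 6 of the 10 members, and promoters of Elovl3, Fads1, Scd1 and Scd2 were not analysed here. The window is chr3:129532136-129532385 on the plus strand, printed 5′ to 3′ in the direction of the gene, with capitals reserved for motif matches. Several motifs were searched on both strands. The core of the sterol response element was TCACNCCAC, the E-box was CACGTG, the CCAAT box was searched by the letters of its name, and the letters of the GC box were GGGCGG. Direct repeats of the nuclear receptor motif AGGTCA were searched with 1 or 4 bases between the copies.
Elovl6: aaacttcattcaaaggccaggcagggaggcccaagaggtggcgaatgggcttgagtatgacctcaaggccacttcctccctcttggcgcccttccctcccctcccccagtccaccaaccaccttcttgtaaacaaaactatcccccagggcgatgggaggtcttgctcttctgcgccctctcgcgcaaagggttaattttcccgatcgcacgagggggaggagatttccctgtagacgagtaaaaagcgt
None of these motifs matched in the Elovl6 window, so it holds no capitals. Among 32851 promoters of the table, 1.05% held the sterol response core, 6.02% the E-box, 33.8% CCAAT and 32.7% the GC box, and the repeats with 1 and 4 bases between occurred in 0.0335% and 0.0152%. Over the 8 member promoters, 5 held a GC box, 2 held CCAAT, 1 held an E-box, and the sterol response core and both repeats were in 0. At those shares, the sterol response core and both repeats would be in few or none of 8 promoters. A match is a run of letters and was not tested as a binding site. A site that differs from these letters would be missed.

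Elovl3 acts on saturated and monounsaturated very long chains and is known in liver for a daily rhythm and for a level that depends on sex hormones. Its probe (A_51_P324633, NM_007703) read 3173 on the fasting array and 267 on the feeding array. The fasting signal was the higher, and the log2 change of -3.47 was rank 25 among the decreases, with 0.147% of all genes lower by more. Under the other scalings and normexp, which alone could move it, the change lay between -3.46 and -3.03. Of 6 genes of the circadian clock, a list added after its values were known, 1 was called higher and 2 lower, beside the 3.29% and 4.62% of all genes. Per2 was 5.15-fold higher upon feeding, Per1 3.86-fold lower and Nr1d2 2.07-fold lower (log2 change -1.05). Nr1d1 (-0.97), Arntl (-0.43) and Dbp (0.09) lay within 2-fold. With scaling by percentile 75, Nr1d1 passed 2-fold at -1.04, and Nr1d2 did not pass it under that scaling (-0.98), median scaling (-0.86) or normexp (-0.98). The part of the time of collection in the Elovl3 difference was not tested.

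Elovl1, an elongase of saturated and monounsaturated very long chains that feeds sphingolipid synthesis, had 2 probes to the same transcript (NM_001039176). The brighter one (A_55_P2151273) read 6957 upon fasting and 9906 upon feeding, a log2 change of 0.52 or 1.44-fold. The dimmer one (A_55_P2022861) read 723 and 708, a change of 0.09, which is no larger than the SD of 0.09 between replicate spots. Before normalization the dimmer probe was at -0.03, so that probe has no settled direction. Elovl7 lengthens saturated chains. Its probe (A_52_P354682, NM_029001) read 260 upon fasting and 136 upon feeding, with the higher signal upon fasting. The log2 change was -0.73, and -0.40 with the normexp background correction.

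The 4 genes that work on polyunsaturated chains all read lower upon feeding, and none of them passed 2-fold. Their changes lay between -0.83 and -0.47 with a median of -0.62, beside a scanner error estimate of 0.20 for each change, and neither this error nor the spread between spots covers the spread between mice. Elovl2, which makes the longest polyunsaturated precursors of docosahexaenoic acid, was represented by probe A_55_P2062737 (NM_019423). Its signal was 19353 upon fasting and 10871 upon feeding, a 1.78-fold lower value. Elovl5, which lengthens the products of the front-end desaturases, read 40692 and 25786 on its probe (A_51_P505493, NM_134255). The feeding value was 1.53-fold lower. Fads1 (A_51_P358112, NM_146094), which adds the last double bond on the way to arachidonic acid, read 3589 upon fasting and 2269 upon feeding, or 1.54-fold lower. Fads2 (A_66_P130115, NM_019699), the desaturase at the entry of the branch, read 546 and 357. Its change of 1.38-fold was the smallest of the branch. With scaling by the medians the changes of the 4 genes were -0.60 for Elovl2, -0.42 for Elovl5, -0.43 for Fads1 and -0.38 for Fads2, so the direction was kept while the sizes were smaller. With normexp Fads2 was at -0.36.

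Promoters of 3 of these genes were in the RefSeq table and are shown because the genes read lower together. Each line gives 250 bases before a start site on GRCm38.p6, 5′ to 3′ in the direction of the gene, with the motif matches in capitals. The windows are chr9:77917115-77917364 on the plus strand for Elovl5, chr13:41220404-41220653 on the minus strand for Elovl2 and chr19:10101504-10101753 on the minus strand for Fads2.
Elovl5: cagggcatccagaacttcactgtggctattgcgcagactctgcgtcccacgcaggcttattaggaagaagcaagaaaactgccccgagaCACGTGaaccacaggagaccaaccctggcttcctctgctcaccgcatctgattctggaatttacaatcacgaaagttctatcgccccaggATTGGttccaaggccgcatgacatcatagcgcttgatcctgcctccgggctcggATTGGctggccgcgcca
Elovl2: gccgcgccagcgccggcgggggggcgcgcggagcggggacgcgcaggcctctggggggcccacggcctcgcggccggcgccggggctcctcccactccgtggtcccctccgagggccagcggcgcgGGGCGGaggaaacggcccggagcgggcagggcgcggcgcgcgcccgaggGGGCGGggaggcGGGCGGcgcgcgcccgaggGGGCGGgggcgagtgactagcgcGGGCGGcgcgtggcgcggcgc
Fads2: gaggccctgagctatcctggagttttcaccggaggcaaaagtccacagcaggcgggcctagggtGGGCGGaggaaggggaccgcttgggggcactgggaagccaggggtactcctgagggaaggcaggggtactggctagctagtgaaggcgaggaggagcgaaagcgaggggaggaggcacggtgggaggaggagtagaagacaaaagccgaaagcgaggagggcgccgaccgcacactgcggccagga
The Elovl5 window held 1 E-box, at bases -161 to -156 from the start site, and 2 CCAAT boxes read on the opposite strand. The Elovl2 window, the upstream one of a pair in the table, held 5 GC boxes, and the Fads2 window held 1. The other Elovl2 window of the pair, chr13:41220163-41220412, is not printed and held 0 matches. No motif of the search was in all 3 printed windows. Their content of G and C was 55.6% for Elovl5, 87.2% for Elovl2 and 64.8% for Fads2, against 56.4% for the Elovl6 window above and a median of 52.4% over all promoters.

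Scd1, the main stearoyl-CoA desaturase of liver, turns stearate and palmitate into oleate and palmitoleate. Its probe (A_52_P682382, NM_009127) read 62173 on the fasting array and 33451 on the feeding array. The fasting signal was the higher, by 1.78-fold, which did not pass 2-fold, and 6.23% of all genes had a larger decrease. The change of -0.83 lay between -0.90 and -0.66 under the other scalings and normexp, which alone could move it. Scd2, which is more abundant in brain than in liver, read 865 and 954 on its probe (A_51_P129464, NM_009128). Its change of 0.24 was above the replicate-spot SD of 0.09 and close to the scanner's error estimate of 0.20. The Scd genes are close paralogs, and the share of a signal that comes from a paralog was not tested.

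**Figure D2:**
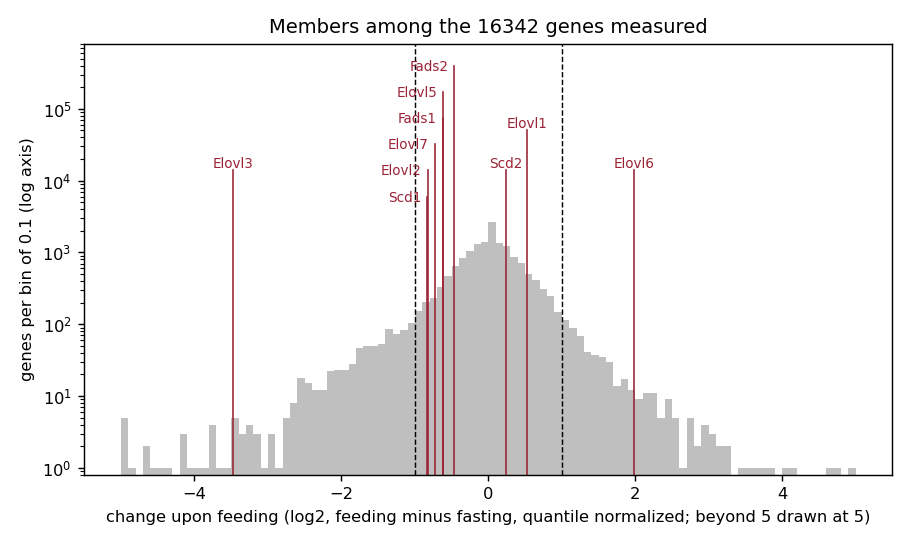
Number of genes (log axis) per bin of log2 change upon feeding for the 16342 genes measured (grey), with each member as a red line whose height carries no value and the 2-fold thresholds as dashed lines. Elovl3 at -3.47 and Elovl6 at 1.98 lie outside the thresholds, and 6 further members lie between -0.83 and -0.47.

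Several members lie side by side on chromosome 19 in the gene order of GRCm38.p6, and the neighbours differed in direction within each run. The order Fads3, Fads2, Fads1 has no other protein-coding gene between, and Fads3 read 268 upon fasting and 367 upon feeding, a log2 change of 0.62, beside -0.47 for Fads2 and -0.62 for Fads1, an adjacent pair that both read lower. The order Scd3, Scd2, Scd4, Scd1 likewise forms a run of 4 genes. Scd3, a desaturase best known from skin, read 156 and 249 on its brightest probe, a change of 0.87, but 0.23 and 0.13 on its other probes. It and the adjacent Scd2 (0.24) both read higher, while Scd1 at the other end of the run was at -0.83. Scd4 did not clear background upon fasting or upon feeding. The other relatives outside the set were Fads6, a desaturase-like gene whose probes gave 0.53 and -0.14, and the sphingolipid desaturases Degs1 (-0.11) and Degs2. Degs2 was not well above background upon fasting, which bounds its change at 0.49 or more. Elovl4, an elongase of ultra-long chains in retina and skin, was not well above background upon fasting and read 38.5 upon feeding on 1 of its 2 probes, at least 2.87-fold higher. With normexp its bound was 0.38 on the log2 scale, under 2-fold, and its other probe did not clear background on the arrays. Of 7 relatives 6 were measured, with 1 called higher and 0 lower, beside the 3.29% and 4.62% of all genes. The median of the relatives was 0.57. With normexp 0 were called, the median was 0.36 and the bound of Degs2 was 0.13.

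The sign of every member held across the scalings and the background correction, as the plot of changes by way of processing shows. Median scaling moved all members upward, to -3.33 for Elovl3 and 2.20 for Elovl6. Normexp brought Elovl3 (-3.03), Elovl7 (-0.40), Fads1 (-0.42) and Fads2 (-0.36) nearer to zero, and moved Elovl2 (-0.89) and Scd1 (-0.90) away from it.

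**Figure D3:**
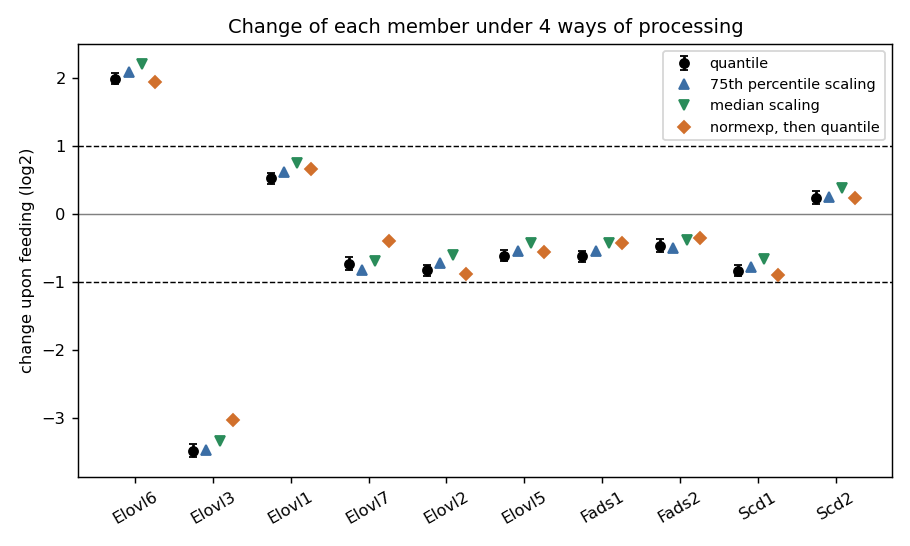
Log2 change upon feeding of each member under quantile normalization (black circles, with bars of 1 SD between replicate spots of similar signal), 75th percentile scaling (blue), median scaling (green) and normexp followed by quantile normalization (orange); dashed lines mark 2-fold. Elovl6 stays above and Elovl3 below 2-fold in all 4, and Elovl7 ranges from -0.82 to -0.40.

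The substrates of the members come from fatty acid synthesis, and 2 of 6 genes for palmitate and malonyl-CoA supply were at least 2-fold higher upon feeding and 0 lower. Over all genes measured the shares were 3.29% higher and 4.62% lower. Fasn, the fatty acid synthase, read 142 upon fasting and 1036 upon feeding, a log2 change of 3.02. Acaca, which makes malonyl-CoA, was at 1.22, and the median of the list was 0.62. A dim Acaca probe read 15.6 upon fasting and 10.6 upon feeding, a change of -0.41. That is within the replicate-spot SD of 0.50 among the dimmest probes. Both of the other scalings, by percentile 75 and by the median, brought Acly, the ATP citrate lyase, past 2-fold as well, for 3 of 6. The other enzymes of the elongation cycle, the reductases and dehydratases that act after every elongase, had 0 of 6 past 2-fold in either direction and a median of -0.33 (-0.12 with median scaling). The largest change among them was that of the ketoacyl reductase Hsd17b12, at -0.51. Of the cytochrome b5 and reductase genes listed for electron supply, 5 of 6 were measured and 0 were past 2-fold, with a median of 0.07 (-0.01 with normexp). The largest change was 0.46 for Cyb5b, whose other probe was at 0.82. Cyb5b is a cytochrome of the outer mitochondrial membrane, and its electron supply to the desaturases was not tested.

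Among 12 regulators of the pathway, 2 were at least 2-fold higher upon feeding and 0 lower, beside the 3.29% and 4.62% of all genes. The median of the regulators was 0.25. With median scaling 3 were higher, as Mlxipl, which encodes the carbohydrate-responsive factor ChREBP, went from 0.83 to 1.04, and with normexp 1 was. The other Mlxipl probe read 252 upon fasting and 247 upon feeding, a change of 0.14. Srebf1, which encodes the lipogenic factor SREBP-1, read 206 upon fasting and 1677 upon feeding, a log2 change of 3.15. Insig1, an anchor that holds SREBP precursors in the endoplasmic reticulum, read 133 and 288, a change of 1.30 (0.77 with normexp). Ppara and Insig2 are named after their values were seen. Ppara, the receptor of fatty acids that fasting activates, read 9971 and 5750, a change of -0.78. Insig2 gave -0.81 on 1 probe and -1.38 on a probe to another transcript.

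Genes that activate fatty acids and genes that use or remove the products showed 0 calls, beside 3.29% higher and 4.62% lower among all genes. At those shares, lists of this size would hold few calls or none. The acyl-CoA synthetases and transporters that activate fatty acids had 0 of 8 past 2-fold and a median of -0.05 (0.04 with median scaling), and the largest change was -0.53 for Acsl1, whose other probe was at -1.16. Peroxisomal shortening, which completes the path to docosahexaenoic acid, had 0 of 7 and a median of -0.15 (-0.02 with median scaling), with Acaa1b, a thiolase, at -0.73. Acyl transfer to phospholipids had 0 of 7 measured of 9 listed and a median of -0.14. Lpcat3, which puts polyunsaturated chains into phospholipids, had the largest change there at -0.84. The ceramide synthases, which take up very long chains, had 0 of 4 measured and a median of 0.20, led by Cers6 at 0.75.

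**Figure D4:**
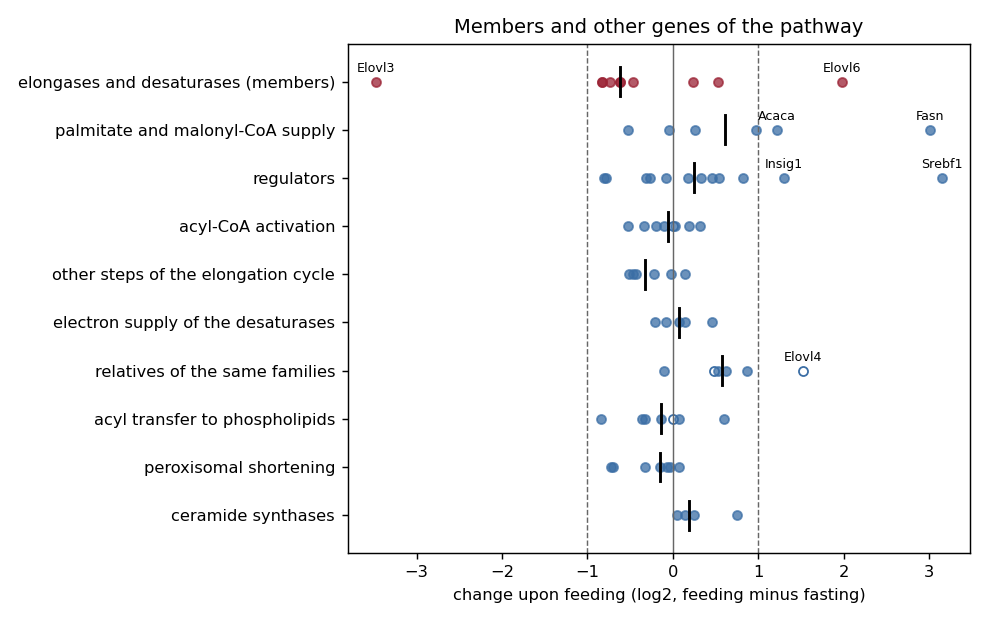
Log2 change upon feeding (x axis) of each gene of the members and of the other lists of the pathway (rows). The list median is a black bar and the 2-fold thresholds are dashed lines. Open circles are lower bounds of genes too dim to measure on 1 array. Fasn and Srebf1 lie near 3, and the members spread from -3.47 to 1.98.

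Markers of hepatocytes, 6 of 6 measured, had changes between -0.33 and 0.07, and Alb read 159091 upon fasting and 141790 upon feeding. Of 33 markers of other liver, blood, fat and pancreas cells, 28 were measured, 2 were called higher and 2 lower, beside the 3.29% and 4.62% of all genes, and their median was -0.17. The calls were Sox9 (2.11), Ms4a1 (1.21), Pecam1 (-1.04) and Cela2a (-2.70), each the only call of its list. Sox9 and Ms4a1 did not stand for their lists. Pecam1 read in the direction of its list, given below, and Cela2a in that of Ctrb1 (-0.40), while Cpa1 gave no fold. Of the other cholangiocyte markers Krt19 was at -0.31, Epcam at 0.08 and Krt7 at 0.19 or more. Of the other leukocyte markers Ptprc was at -0.49 and Cd3e at -0.37, and Cd79a, a B cell gene as Ms4a1 is, did not clear background upon fasting and gave no fold. Sox9 alone stayed past 2-fold under every scaling and under normexp, which gave 0.21 for Ms4a1, -0.79 for Pecam1 and -0.40 for Cela2a. All 4 Kupffer cell markers read lower, with a median of -0.27 and Adgre1 lowest at -0.89. With median scaling their median was -0.06, and Vsig4 and Cd5l were each at 0.10. Of 4 stellate cell markers 3 read lower, with a median of -0.33 (-0.13 with median scaling), and Reln at -0.97 passed 2-fold with scaling by percentile 75, at -1.08. All 4 endothelial markers read lower, with a median of -0.42 (-0.20 with median scaling, which put Kdr at 0.08). Their summed processed signals were 25773 upon fasting and 19100 upon feeding. Fat also expresses Scd1 and Elovl3, and the 3 adipocyte markers measured had summed processed signals of 147 and 234, of which Cfd made up 126 and 203. Plin1 cleared background upon feeding alone, at 9.77, and the defining markers Adipoq and Lep did not clear it in either group. The part of cell composition in the member changes was not tested.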

How the data were processed

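The deposited files are Agilent Feature Extraction 11.0.1.1 output for 2 single-colour arrays, and the intensities of the authors are per spot: median signal, local background and the background-subtracted processed signal, none normalized between arrays. Per the methods, the authors then applied quantile normalization and a 2-fold threshold. Here log2 processed signals, without 1377 control spots per array and 123 (fasting) or 98 (feeding) outlier spots, were averaged per probe and quantile normalized (Python 3.11.15, numpy 2.4.6, pandas 2.3.3). Transcript identifiers named 27218 of 39402 probes through the RefSeq table of GRCm38.p6. The array design names mm9, so no probe coordinates are given. The brightest probe stood for a gene. A probe not well above background on 1 array gave a lower bound from the lowest signal well above background there, and where that bound gave no difference the change was taken as 0. Probes not well above background on either array were left out.

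Results were recomputed with scaling by percentile 75 or by the median, with normexp at an offset of 50 (limma 3.58.1, R 4.3.3) on the median signal, the mean signal not being used here, and with other probe choices, other filters on dim probes, no bound, and thresholds of 1.5-fold and 3-fold. The deposited value table holds the local background of 44397 of 44397 spots on both arrays (relative difference within 1e-06) and was not used. The normalization and the fold calls were tested on simulated data, at the noise of probes of high signal. Every simulated gene had 1 probe above background, so the probe choice, the filter and the bound were not tested. The members and lists were chosen with earlier results of these data known. Named were all members and relatives, and from each other list up to 3 genes past 2-fold with the largest change, or the 1 largest where none passed. A few others, such as Acly, Mlxipl, Ppara, Insig2, cell type markers within 2-fold and the clock genes, were picked after their values were seen.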

Additional observations from a re-analysis of the deposited data

How the results depend on the processing

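No member changed its sign under any of the 8 alternatives. Every member but Elovl1 had 1 probe, above background on both arrays, so only the other scalings and normexp could move it. Elovl6 stayed the 1 member at least 2-fold higher and Elovl3 the 1 at least 2-fold lower under each alternative. The same held at a threshold of 3-fold. The median change of the members, -0.62, became -0.42 with median scaling, where the median of all genes was 0.09, and -0.41 with normexp. At 1.5-fold, 6 members were lower in place of 1, and 1 was higher. In combinations added after seeing the data, the 1.5-fold counts became 4 lower and 2 higher with percentile 75 or median scaling. With normexp they were 3 lower and 2 higher. They stayed at 6 and 1 under the other 5 alternatives, which could move Elovl1 alone. Over all genes, 537 higher and 755 lower became 215 and 312 with normexp, and 876 and 759 with no bound for dim probes. The alternative that used the value table was not run, since it holds local background. The limits are 1 array per group, pools of 3 mice, and a replicate-spot SD that rises to 0.50 among the dimmest probes, a class with no member. No paired analysis was possible because each group had 1 array.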
